A study of Mus musculus with 30 samples.

Results

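The 7 genes described here, Rrm1, Rrm2, Rrm2b, Tk1, Tyms, Dut and Dck, encode enzymes that make the deoxynucleotides from which DNA is built. They were taken by symbol from a Clariom S mouse expression array, on which each had 1 transcript cluster (the set of probes that reads 1 gene), and they are 7 of 22139 clusters tested. Kidneys came from male C57BL/6 mice aged 9 to 11 weeks, all offspring of Trp53(+/-) parents. There were 6 groups of 5 mice, 1 array per mouse: Trp53(-/-), Trp53(+/-) and Trp53(+/+) mice that received 3.5 mg/kg aristolochic acid I (AAI) by daily intraperitoneal injection for 6 days, and mice of the same genotypes injected with water. AAI is a plant nephrotoxin and carcinogen that forms DNA adducts after metabolic activation. In Trp53(-/-) mice a neomycin cassette replaces part of both copies of the gene in every tissue, so that no p53 protein is made, and Trp53(+/-) mice carry 1 such copy. The genotypes are also called null, heterozygous and wild-type below. Kidneys were taken 24 h after the last injection.

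Ribonucleotide reductase turns ribonucleotides into deoxyribonucleotides, the rate-limiting step of de novo DNA precursor synthesis. The enzyme joins the large catalytic subunit Rrm1 with a small subunit that carries the radical needed for the reaction. Dividing cells use Rrm2, which is made in S phase and degraded at mitosis, whereas Rrm2b (p53R2) is the small subunit of resting and damaged cells and is known as a p53 target gene. Tyms makes thymidylate from deoxyuridylate, Tk1 salvages thymidine in S phase, Dut removes dUTP so that uracil stays out of DNA, and Dck salvages deoxycytidine and the purine deoxynucleosides. Most cells of an adult kidney do not divide, and tubules re-enter the cell cycle after injury.

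Of the ribonucleotide reductase genes, Rrm1 and Rrm2 rose with AAI in kidneys of all 3 genotypes, and Rrm2b rose in none. The AAI effect was 4.73-fold for Rrm1 and 2.81-fold for Rrm2 in Trp53(-/-) kidneys, 2.06-fold and 1.62-fold in Trp53(+/-) kidneys, and 3.23-fold and 2.09-fold in Trp53(+/+) kidneys. The Trp53(+/-) AAI and water arrays came from different cDNA batches, and with a batch term the rise there passed under 1 of 5 possible assignments for Rrm1 and under 0 of 5 for Rrm2. Rrm2b was lower with AAI, by 1.35-fold in Trp53(+/+) kidneys, where the change passed an adjusted p of 0.05. Tyms and Dck rose in Trp53(-/-) kidneys, Dut rose in Trp53(-/-) and Trp53(+/+) kidneys, and Tk1 passed the test in no genotype. In whole-kidney RNA, more or fewer cells of a type and more or less RNA per cell cannot be told apart. All differences below are AAI minus water, or 1 genotype minus another, on the log2 scale, tested with limma across all 22139 clusters with Benjamini-Hochberg adjustment.

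In Trp53(-/-) kidneys 5 of the 7 genes rose and 0 fell, where 15.5% of all clusters tested rose and 10.9% fell. In Trp53(+/-) kidneys 2 of the 7 rose and 0 fell, against 3.53% and 3.81% of all clusters. In Trp53(+/+) kidneys 3 rose and 1 fell, against 15.2% and 12.0%. With at least a 2-fold change asked for as well, Rrm1 and Rrm2 remained in Trp53(-/-) kidneys (3.33% of all clusters rose this far and 2.83% fell), Rrm1 alone in Trp53(+/-) kidneys (0.700% and 0.790%), and Rrm1 and Rrm2 in Trp53(+/+) kidneys (3.37% and 2.67%). Over the 7 genes the median change was 0.48, 0.18 and 0.26 in null, heterozygous and wild-type kidneys, beside medians of -0.01, 0.00 and -0.03 over all clusters.

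**Figure D1:**
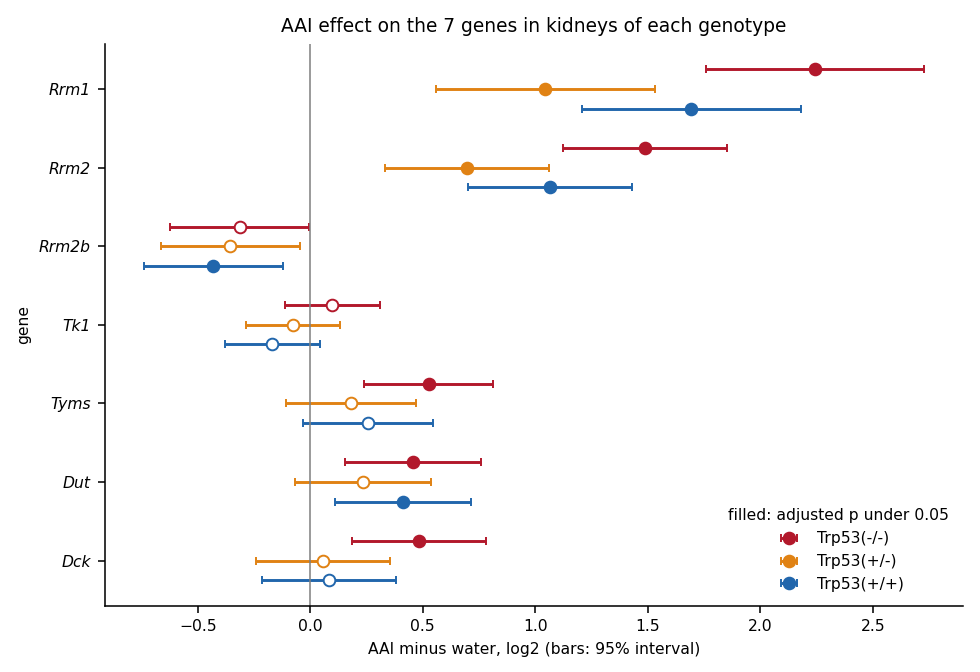
AAI minus water on the log2 scale (horizontal axis) for the 7 genes (vertical axis) in Trp53(-/-), Trp53(+/-) and Trp53(+/+) kidneys, with 95% intervals from limma and filled points where the adjusted p was under 0.05. Rrm1 and Rrm2 lie right of 0 in all genotypes, up to 2.24 for Rrm1 in Trp53(-/-) kidneys, and Rrm2b lies left of 0.

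The arrays were made from cDNA of 2 batches, of 14 and 16 samples, and this bears on which comparisons stand within a batch. All Trp53(-/-) arrays were in the second batch, so their AAI effect is a within-batch value. The Trp53(+/+) water arrays and 4 of the 5 Trp53(+/+) AAI arrays were in the first. All Trp53(+/-) AAI arrays were in the first batch and all Trp53(+/-) water arrays in the second, so that in this genotype batch and AAI are linked by a single Trp53(+/+) AAI array alone. The labels do not say which array that was, so a batch term was fitted under each of the 5 possible assignments.

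Rrm1, the large subunit that every form of the reductase needs, had a log2 signal of 7.69, 7.89, 7.48, 7.22 and 6.87 on the 5 Trp53(-/-) AAI arrays, against 5.18, 5.13, 5.09, 5.30 and 5.24 on the Trp53(-/-) water arrays. It read 5.99, 6.58, 5.88, 6.54 and 6.37 in Trp53(+/-) AAI kidneys and 4.98, 5.58, 4.92, 5.29 and 5.35 in Trp53(+/-) water kidneys. In Trp53(+/+) kidneys it read 6.99, 6.48, 6.49, 5.86 and 5.79 with AAI and 5.71, 4.26, 4.77, 4.07 and 4.32 with water. Within each genotype every AAI array lay above every water array, and the Trp53(-/-) water arrays were the closest together. The AAI effect was 2.24 (SE 0.24, adjusted p = 6.08e-09) in Trp53(-/-), 1.04 (SE 0.24, adjusted p = 0.00393) in Trp53(+/-) and 1.69 (SE 0.24, adjusted p = 1.12e-06) in Trp53(+/+) kidneys. With the batch term the Trp53(+/+) effect lay between 1.53 and 1.83 and passed under all 5 assignments, while the Trp53(+/-) effect ran from 0.38 to 1.88 and passed under 1.

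Rrm2, the S-phase small subunit, moved the same way as Rrm1. Its log2 signal was 7.23, 7.58, 7.78, 7.42 and 6.92 in Trp53(-/-) AAI kidneys and 6.09, 5.87, 6.12, 5.82 and 5.57 in Trp53(-/-) water kidneys. Trp53(+/-) kidneys had 6.38, 6.80, 6.06, 6.46 and 6.46 with AAI and 6.00, 5.83, 5.26, 6.09 and 5.51 with water. Trp53(+/+) kidneys had 6.94, 6.74, 6.74, 6.29 and 6.51 with AAI and 5.98, 5.15, 5.93, 5.34 and 5.50 with water. The AAI and water arrays did not overlap in Trp53(-/-) and Trp53(+/+) kidneys, and in Trp53(+/-) kidneys 4 of 5 AAI arrays were above all water arrays. The AAI effect was 1.49 (SE 0.18, adjusted p = 6.34e-08), 0.70 (SE 0.18, adjusted p = 0.0113) and 1.06 (SE 0.18, adjusted p = 1.96e-05) in Trp53(-/-), Trp53(+/-) and Trp53(+/+) kidneys. The Trp53(+/-) call was lost when either AAI replicate 2 or water replicate 3 was left out (adjusted p up to 0.0549), and under all 5 batch assignments (0.25 to 1.07).

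Set against the Trp53(+/+) water arrays, which share their cDNA batch, the Trp53(+/-) AAI kidneys had Rrm1 higher by 1.64 (adjusted p = 4.19e-06) and Rrm2 by 0.85 (adjusted p = 0.00061). Tyms was also higher, by 0.40 (adjusted p = 0.038), while Rrm2b had -0.17 (adjusted p = 0.461), Tk1 -0.27 (adjusted p = 0.0564), Dut 0.40 (adjusted p = 0.0508) and Dck 0.12 (adjusted p = 0.602). That comparison holds the batch constant and lets the genotype differ.

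The promoter windows of Rrm1 and Rrm2 are printed here because these 2 genes rose together. They are RefSeq sequence on GRCm38.p6, from 250 bases before to 50 bases after the annotated start, 5′ to 3′ on the gene's strand, at chr7:102441445-102441744 (+) for Rrm1 and chr12:24708004-24708303 (+) for Rrm2. Capitals mark CCAAT, the core letters of the box bound by the factor NF-Y.
Rrm1: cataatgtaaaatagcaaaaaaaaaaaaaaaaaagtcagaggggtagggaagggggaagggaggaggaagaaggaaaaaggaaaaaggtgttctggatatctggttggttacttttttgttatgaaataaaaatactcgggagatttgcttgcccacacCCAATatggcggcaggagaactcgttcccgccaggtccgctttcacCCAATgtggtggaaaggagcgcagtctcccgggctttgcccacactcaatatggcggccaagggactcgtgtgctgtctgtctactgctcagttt
Rrm2: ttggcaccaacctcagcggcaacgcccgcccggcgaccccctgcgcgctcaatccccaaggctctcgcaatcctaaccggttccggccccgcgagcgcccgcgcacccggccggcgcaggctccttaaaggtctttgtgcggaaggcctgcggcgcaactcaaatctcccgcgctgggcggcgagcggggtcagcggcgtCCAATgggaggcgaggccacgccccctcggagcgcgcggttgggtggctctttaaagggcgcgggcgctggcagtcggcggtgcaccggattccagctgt
Of the 7 genes, 6 matched a window in the table used, all but Rrm2b. The Dut window, chr2:125247265-125247564 (+), lay inside the gene, whose first base was at 125247248. It held no sequence before that base, so the counts below are of windows and not of 6 full promoters. CCAAT on either strand was present in the windows of 2 of those 6 genes, beginning 91 and 45 bases before the start in Rrm1 and 50 bases before it in Rrm2, and it was present in 37.4% of 32851 windows of 300 bases. The E2F words TTTCCCGC, TTTCGCGC, TTTGCCGC and TTTGGCGC, searched on both strands, were in 0 of the 6 windows and in 2.26% of all. Only these exact words were searched, so E2F sites spelled otherwise would be missed. The CHR element TTTGAA, in either direction, was in 1 of the 6, that of Dck, and in 17.9% of all. None of these words overlapped another in the windows of the 6 genes.

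**Figure D2:**
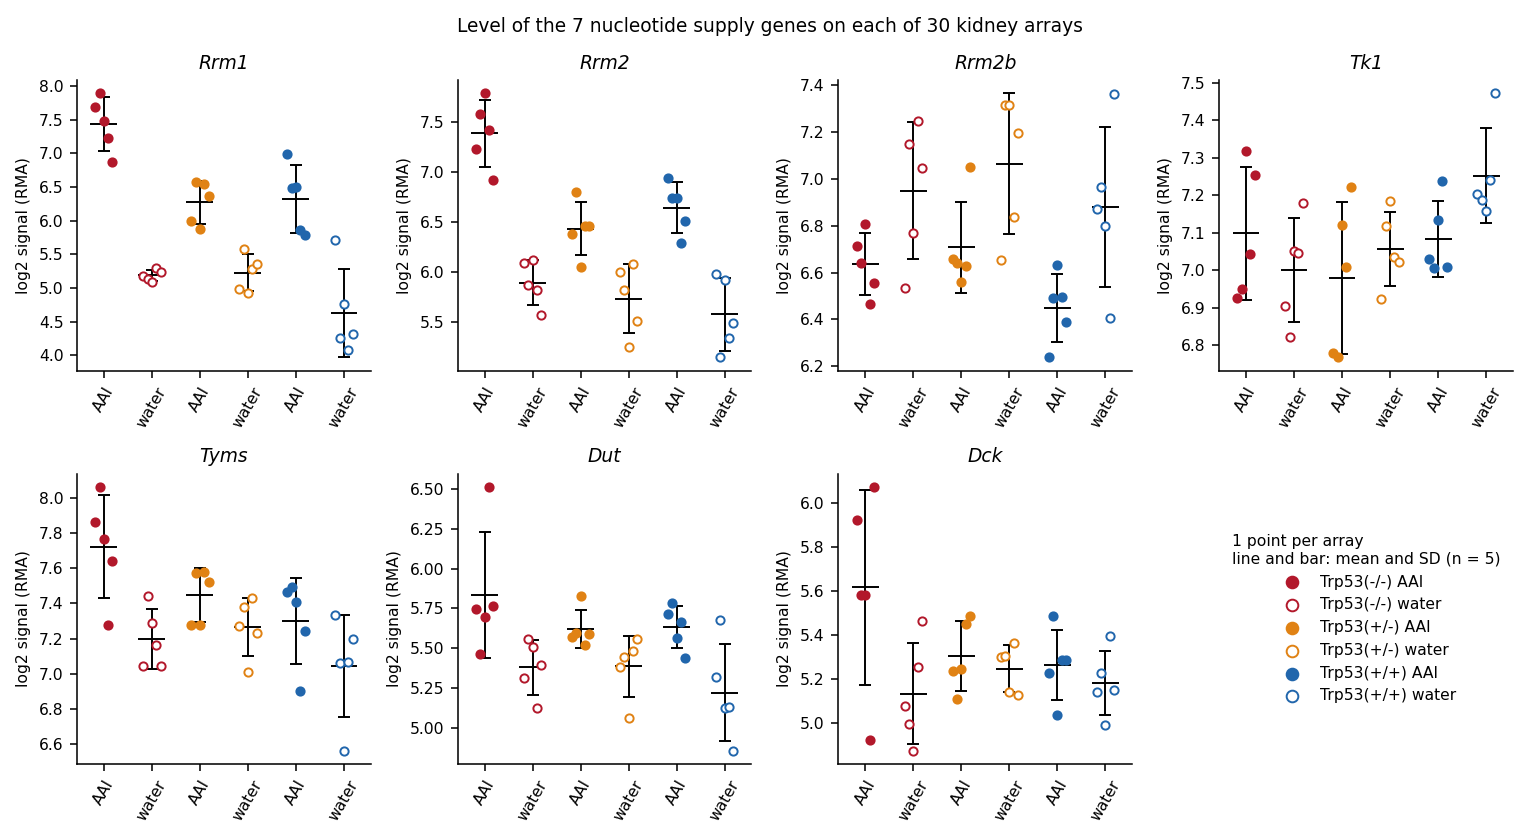
Log2 signal (vertical axis) of each of the 7 genes on each of the 30 arrays, for AAI (filled) and water (open) kidneys of Trp53(-/-), Trp53(+/-) and Trp53(+/+) mice from left to right, with the mean and SD of 5 arrays. The Trp53(-/-) AAI arrays reach 7.89 for Rrm1 and 7.78 for Rrm2, while Rrm2b and Tk1 stay within 6.24 to 7.36 and 6.77 to 7.47 over all arrays.

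Rrm2b, the p53-controlled small subunit, did not follow Rrm1 and Rrm2. Its log2 signal was 6.71, 6.64, 6.81, 6.47 and 6.55 in Trp53(-/-) AAI kidneys and 6.53, 7.15, 6.77, 7.25 and 7.05 in Trp53(-/-) water kidneys. It was 6.66, 6.64, 6.56, 6.63 and 7.05 in Trp53(+/-) AAI kidneys and 6.65, 7.31, 7.31, 6.84 and 7.19 in Trp53(+/-) water kidneys. Trp53(+/+) kidneys had 6.24, 6.49, 6.63, 6.49 and 6.39 with AAI and 6.87, 6.97, 6.80, 6.41 and 7.36 with water. No AAI array lay above all water arrays of its genotype, and the groups overlapped in all 3 genotypes. The AAI effect was -0.31 (adjusted p = 0.136) in Trp53(-/-), -0.36 (adjusted p = 0.200) in Trp53(+/-) and -0.43 (SE 0.15, adjusted p = 0.0318) in Trp53(+/+) kidneys.

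The upper end of the 95% interval of the Rrm2b effect in Trp53(+/+) kidneys, where p53 is intact, was -0.12. The effect did not differ detectably between genotypes: Trp53(-/-) minus Trp53(+/+) was 0.12, with an interval of -0.32 to 0.56 (adjusted p = 0.936). The Trp53(+/+) call was lost without any 1 of AAI replicates 1 and 5 and water replicates 2 and 5 (adjusted p up to 0.137), and held under 3 of 5 batch assignments. Without water replicate 1 the fall in Trp53(-/-) kidneys passed as well, at -0.42 (adjusted p = 0.0446). In water kidneys Rrm2b also did not pass between genotypes, at 0.07 for Trp53(-/-) minus Trp53(+/+) (interval -0.24 to 0.38) and 0.18 for Trp53(+/-) minus Trp53(+/+) (interval -0.13 to 0.49).

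Of a list of 20 other p53 target genes 19 were measured, and 5, 11 and 12 rose in null, heterozygous and wild-type kidneys, while 0 fell. Of all clusters 15.5%, 3.53% and 15.2% rose in those kidneys. The list was split, since 7 of the 19 passed in no genotype: Sesn2, a stress-induced regulator of metabolism, Bbc3 and Fas, which promote apoptosis, Aen, a nuclease, Zmat3, an RNA-binding protein, Tigar, a regulator of glycolysis, and Ddb2, a DNA damage sensor. Their AAI effects ran from -0.16 to 0.31, and the lowest adjusted p was 0.103. The targets described next are those with the largest changes. Eda2r, a TNF receptor family member, changed by 0.15 (adjusted p = 0.696) in Trp53(-/-), 1.74 (adjusted p = 1.41e-05) in Trp53(+/-) and 2.52 (adjusted p = 1.81e-10) in Trp53(+/+) kidneys. Trp53inp1, a p53-induced nuclear protein, changed by -0.19 (adjusted p = 0.687) in null, 1.08 (adjusted p = 0.00919) in heterozygous and 2.24 (adjusted p = 7.48e-08) in wild-type kidneys. For both genes the Trp53(-/-) effect was below the Trp53(+/+) effect by the test of the difference (-2.37, adjusted p = 8.78e-05 for Eda2r, and -2.42, adjusted p = 0.00117 for Trp53inp1). In that test 4 of the 19 targets passed, all with the lower effect in Trp53(-/-) kidneys, beside 0.104% of all clusters.

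Some targets rose in all genotypes. Cdkn1a, the p21 cell cycle inhibitor, rose by 3.27, 3.07 and 4.40 in Trp53(-/-), Trp53(+/-) and Trp53(+/+) kidneys. Plk2, a stress-induced kinase, rose by 2.32, 2.14 and 3.27, and Btg2, an antiproliferative gene, by 1.37, 1.10 and 2.02, in null, heterozygous and wild-type kidneys. Phlda3, an inhibitor of Akt, had 0.52 (adjusted p = 0.195) in Trp53(-/-) kidneys, which passed without AAI replicate 2 (0.77, adjusted p = 0.0397), and rose by 1.46 and 2.08 in Trp53(+/-) and Trp53(+/+) kidneys. The Trp53(-/-) minus Trp53(+/+) difference of the effect did not pass for Cdkn1a (adjusted p = 0.570) or Plk2 (adjusted p = 0.528). Nor did it pass for Btg2 (adjusted p = 0.554) or Phlda3 (adjusted p = 0.173). Rrm2b rose in no genotype, like the 7 targets named above. Trp53 was not among the genes analysed here.

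**Figure D3:**
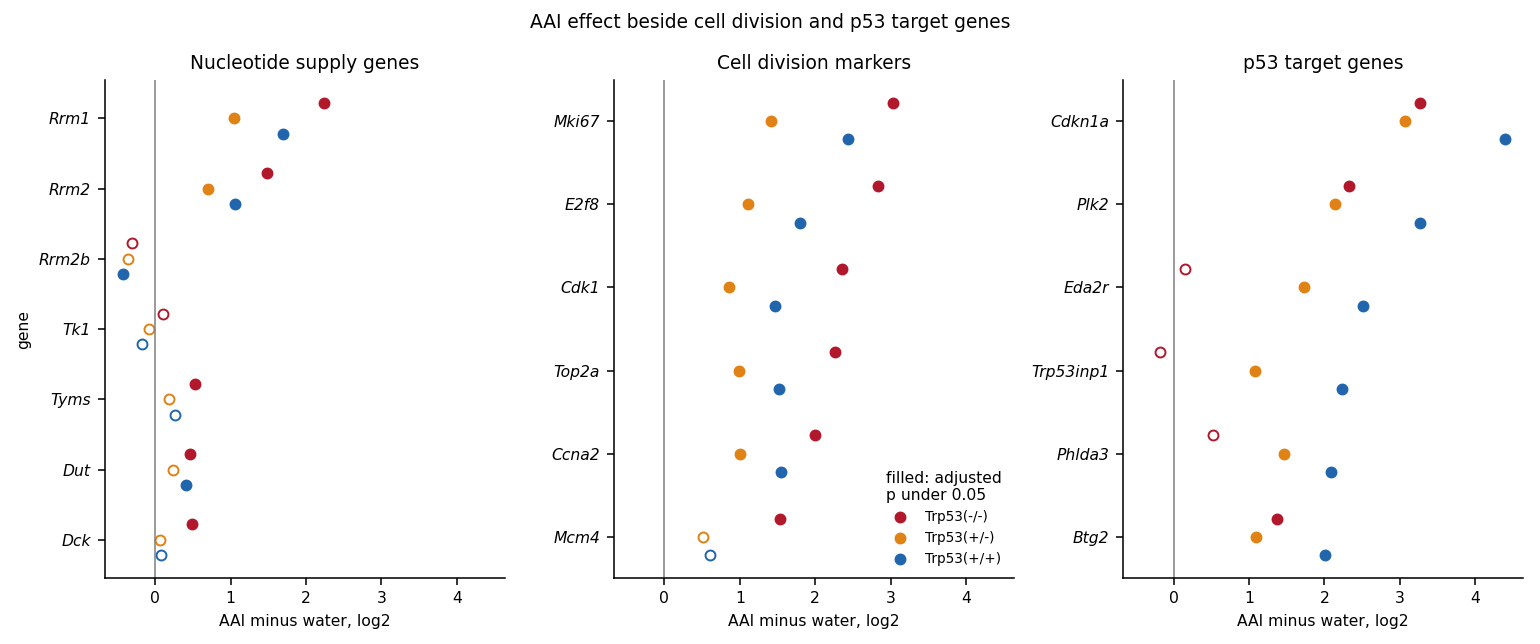
AAI minus water on the log2 scale (horizontal axis) for the 7 nucleotide supply genes, 6 cell division markers and 6 p53 target genes (vertical axes) in Trp53(-/-), Trp53(+/-) and Trp53(+/+) kidneys, filled where the adjusted p was under 0.05. The cell division markers have their highest point in Trp53(-/-) kidneys, like Rrm1 and Rrm2, whereas the 6 p53 targets shown, chosen for large changes, have theirs in Trp53(+/+) kidneys, at 4.40 for Cdkn1a. Of the genes shown, only Eda2r and Trp53inp1 passed the test of the difference between the Trp53(-/-) and Trp53(+/+) effects.

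Tyms, the only de novo source of thymidylate, had a log2 signal of 7.86, 8.06, 7.76, 7.28 and 7.64 in Trp53(-/-) AAI kidneys, against 7.04, 7.44, 7.29, 7.16 and 7.04 in Trp53(-/-) water kidneys. Here 4 of 5 AAI arrays were above all water arrays, and the effect was 0.53 (SE 0.14, adjusted p = 0.00466). In Trp53(+/-) kidneys the 5 AAI arrays ran from 7.28 to 7.58 and the water arrays from 7.01 to 7.43 (effect 0.18, adjusted p = 0.727), although against the Trp53(+/+) water arrays of the same cDNA batch the Trp53(+/-) AAI arrays were higher by 0.40 (adjusted p = 0.038). In Trp53(+/+) kidneys they ran from 6.90 to 7.49 with AAI and from 6.56 to 7.33 with water (effect 0.26, interval -0.03 to 0.55, adjusted p = 0.188). The AAI effect on Tyms was not shown to differ between genotypes, since Trp53(-/-) minus Trp53(+/+) was 0.27 (adjusted p = 0.794).

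Dut, the dUTPase, rose by 0.46 (SE 0.15, adjusted p = 0.0198) in Trp53(-/-) and by 0.41 (SE 0.15, adjusted p = 0.0361) in Trp53(+/+) kidneys, and had 0.23 (adjusted p = 0.559) in Trp53(+/-) kidneys. Its log2 signal on the Trp53(-/-) AAI arrays was 5.74, 5.47, 5.69, 6.51 and 5.76, against 5.31, 5.56, 5.51, 5.13 and 5.39 on the water arrays. Replicate 4 was the highest of the AAI arrays and the lowest of the water arrays, and the Trp53(-/-) call was lost without either one (adjusted p up to 0.111). Trp53(+/+) kidneys had 5.71, 5.78, 5.57, 5.67 and 5.44 with AAI and 5.32, 5.68, 5.12, 5.13 and 4.86 with water. This call was lost when any of 6 arrays was left out (adjusted p up to 0.130).

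Dck, the deoxycytidine kinase, rose by 0.48 (SE 0.15, adjusted p = 0.0117) in Trp53(-/-) kidneys. The 5 AAI arrays read 5.92, 5.58, 5.58, 4.92 and 6.07 and the water arrays 5.08, 4.99, 4.87, 5.25 and 5.46. Replicate 4 with AAI, the array with the highest Dut, had the lowest Dck and Tyms of its group. The Dck call was lost without AAI replicate 5 (adjusted p = 0.0555). In Trp53(+/-) and Trp53(+/+) kidneys the AAI effects on Dck were 0.06 and 0.08, with intervals of -0.24 to 0.35 and -0.22 to 0.38.

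Tk1, the S-phase thymidine kinase, had 6.93, 6.95, 7.32, 7.04 and 7.25 in Trp53(-/-) AAI kidneys and 6.90, 6.82, 7.05, 7.04 and 7.18 in Trp53(-/-) water kidneys. It ranged from 6.77 to 7.22 with AAI and 6.92 to 7.18 with water in Trp53(+/-) kidneys, and from 7.0 to 7.24 with AAI and 7.16 to 7.47 with water in Trp53(+/+) kidneys. The groups overlapped in all genotypes. The AAI effect was 0.10 (interval -0.11 to 0.31) in Trp53(-/-), -0.08 (interval -0.29 to 0.13) in Trp53(+/-) and -0.17 (interval -0.38 to 0.04) in Trp53(+/+) kidneys. These intervals were fitted without a batch term, and a 2-fold rise of the array signal lay outside each. No detection call was used for any cluster, and whether this cluster follows the level of Tk1 RNA was not tested.

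The AAI effects were then compared between genotypes. Rrm1 rose more in Trp53(-/-) than in Trp53(+/-) kidneys, by 1.20 (interval 0.51 to 1.88, adjusted p = 0.0485), and was the 1 gene of the 7 to pass, where 2.58% of all clusters did. Rrm2 had a difference of 0.79 in that comparison (adjusted p = 0.0987), which passed without Trp53(+/-) water replicate 3 or Trp53(-/-) AAI replicate 5 (adjusted p down to 0.0375). The Rrm1 call was lost when any of 19 of the 30 arrays was left out (adjusted p up to 0.112) and under all 5 batch assignments (0.36 to 1.86). For the Trp53(-/-) effect minus the Trp53(+/+) effect 0 of 7 genes passed, as did 0.104% of all clusters, with 0.55 (interval -0.14 to 1.24) for Rrm1 and 0.42 (interval -0.09 to 0.94) for Rrm2. For the Trp53(+/-) minus the Trp53(+/+) effect 0 of 7 passed, against 1.84% of all, with -0.65 for Rrm1 and -0.37 for Rrm2. At an unadjusted p under 0.05 the 3 comparisons had 3, 0 and 0 of the 7 genes and 2712, 1684 and 2282 of the 22139 clusters, in the order given here.

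Among AAI kidneys, Rrm1 and Rrm2 were higher in Trp53(-/-) mice than in either other genotype. The difference from Trp53(+/-) kidneys was 1.16 for Rrm1 (adjusted p = 0.00099) and 0.95 for Rrm2 (adjusted p = 0.000368), with 2 of 7 genes and 10.4% of all clusters passing. The difference from Trp53(+/+) kidneys was 1.11 for Rrm1 (adjusted p = 0.00571) and 0.74 for Rrm2 (adjusted p = 0.0155), with 2 of 7 genes and 3.10% of all clusters passing. The Rrm2 difference from Trp53(+/+) kidneys was lost without Trp53(-/-) AAI replicate 2 or 3 (adjusted p up to 0.0682). Without Trp53(-/-) AAI replicate 4, Dck also passed against Trp53(+/-) (adjusted p = 0.00993) and Trp53(+/+) kidneys (adjusted p = 0.0142), and Tyms against Trp53(+/+) (adjusted p = 0.0295). Between Trp53(+/-) and Trp53(+/+) AAI kidneys 0 of 7 genes and 1.54% of all clusters passed, with -0.05 for Rrm1 and -0.21 for Rrm2, and 0 of 7 and 2380 of all had an unadjusted p under 0.05. The Trp53(-/-) AAI arrays were of another cDNA batch than all but 1 of the other AAI arrays, and with the batch term only Rrm1 against Trp53(+/+) passed, under 1 of 5 assignments.

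Among water kidneys no member passed. The 3 comparisons gave 0 of 7 genes, with 0.641% of all clusters for Trp53(-/-) minus Trp53(+/+), 0.235% for Trp53(+/-) minus Trp53(+/+) and 0% for Trp53(-/-) minus Trp53(+/-). At an unadjusted p under 0.05 they had 2, 1 and 0 of the 7, and 3268, 2470 and 1011 of all clusters. Rrm1 was higher by 0.56 in Trp53(-/-) (adjusted p = 0.259) and by 0.60 in Trp53(+/-) (adjusted p = 0.330) than in Trp53(+/+) water kidneys. Replicate 1 of the Trp53(+/+) water group, at 5.71, lay above the other 4 arrays of its group, which ran from 4.07 to 4.77. Without it both differences passed, at 0.83 (adjusted p = 0.0384) and 0.87 (adjusted p = 0.0392). The Trp53(+/+) water arrays were of the first cDNA batch and the other water arrays of the second, so genotype and batch cannot be told apart here beyond the single linking array.

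Ordered by mean level, Rrm1 was at 7.43 ± 0.40 in Trp53(-/-) AAI, 6.32 ± 0.50 in Trp53(+/+) AAI, 6.27 ± 0.32 in Trp53(+/-) AAI, 5.22 ± 0.27 in Trp53(+/-) water, 5.19 ± 0.09 in Trp53(-/-) water and 4.63 ± 0.66 in Trp53(+/+) water kidneys (SD, n = 5 each). Only at the step between Trp53(+/-) AAI and Trp53(+/-) water did neighbouring groups not overlap. Rrm2 ran from 7.38 ± 0.33 in Trp53(-/-) AAI to 5.58 ± 0.36 in Trp53(+/+) water kidneys, with the 3 AAI groups above the 3 water groups and every neighbouring pair overlapping. Rrm2b had the opposite order of treatments, from 7.06 ± 0.30 in Trp53(+/-) water to 6.45 ± 0.15 in Trp53(+/+) AAI kidneys. The order of Tk1 did not divide by treatment: its highest mean was 7.25 ± 0.13 in Trp53(+/+) water and its lowest 6.98 ± 0.20 in Trp53(+/-) AAI kidneys.

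Across the 30 arrays, which share the AAI contrast, Rrm2 correlated with Rrm1 at r = 0.938, with Tyms at 0.709, with Dut at 0.605, with Dck at 0.376, with Tk1 at -0.224 and with Rrm2b at -0.539. After the group means were removed, r was 0.646 for Rrm1, 0.362 for Tyms, -0.035 for Dut, -0.329 for Dck, -0.342 for Tk1 and -0.229 for Rrm2b. Rrm1 and Rrm2 thus moved together in the deviations from the group means, pooled over the 6 groups. This did not hold on every array, since in Trp53(-/-) water kidneys replicate 3 had the lowest Rrm1, 5.09, and the highest Rrm2, 6.12. No correlation was computed within a single group. The correlations given are descriptions over arrays of 6 groups.

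**Figure D4:**
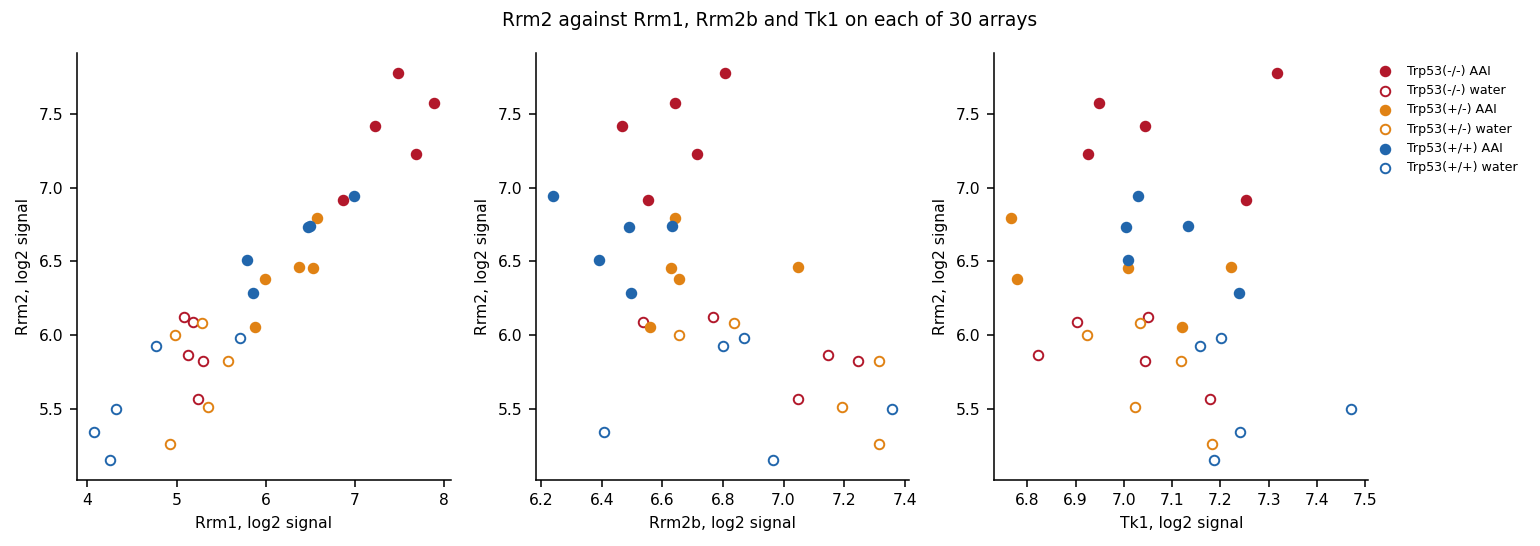
Log2 signal of Rrm2 (vertical axes) against that of Rrm1, Rrm2b and Tk1 (horizontal axes), 1 point per array, for AAI (filled) and water (open) kidneys of the 3 genotypes. Rrm2 rises along Rrm1 (r = 0.938), falls along Rrm2b (r = -0.539) and shows little relation with Tk1 (r = -0.224).

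The genes whose pattern over the 30 arrays was most like that of Rrm2 were H4c4, a histone gene, at r = 0.948, Cenpe, a kinetochore motor, at 0.942, Prr11 at 0.942, Rrm1 at 0.938 and Ube2c, a ubiquitin ligase partner active in mitosis, at 0.935. Their AAI effects ran from 1.30 for H4c4 to 2.87 for Prr11 in Trp53(-/-) kidneys, from 0.62 to 1.18 in Trp53(+/-) kidneys and from 1.15 to 2.03 in Trp53(+/+) kidneys. The genes most like Rrm2b were Zfp827, a zinc finger protein, at 0.759, Mtss1, an actin-binding protein, and Sat2 at 0.727, Afg3l2, a mitochondrial protease subunit, at 0.724 and Gcsam at 0.716. Over the 6 group means the closest to Rrm2b were Ahcyl1 at 0.995, Serp1, a stress protein of the endoplasmic reticulum, at 0.989, Olfr1173, an olfactory receptor, at 0.987, Pgk1, a glycolytic enzyme, at 0.986 and Lman2, a cargo lectin, at 0.985. These were the highest values among all named genes over only 6 points, where selection alone can give r this high. They cannot be set against the values over 30 arrays. The likeness of Rrm2b over the 30 arrays was weaker than that of Rrm2, whose 5 closest genes were all at or above 0.935.

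Cell division markers moved with Rrm1 and Rrm2. Of 17 listed genes 15 were measured, and 14, 7 and 8 rose in null, heterozygous and wild-type kidneys, with none falling. Of all clusters 15.5%, 3.53% and 15.2% rose in those kidneys. For the Trp53(-/-) minus the Trp53(+/+) effect 0 of the 15 passed, beside 0.104% of all clusters. For the Trp53(-/-) minus the Trp53(+/-) effect, which carries the batch difference, 5 passed, beside 2.58% of all clusters. Mki67, a marker of cycling cells, rose by 3.03, 1.42 and 2.43 in null, heterozygous and wild-type kidneys, and Top2a, the topoisomerase of dividing cells, by 2.27, 0.99 and 1.52 in those kidneys. Cdk1, the mitotic kinase, rose by 2.35, 0.85 and 1.47, E2f8, a repressor of the E2F family, by 2.83, 1.10 and 1.79, and Ccna2, the cyclin of S and G2 phase, by 2.00, 1.00 and 1.55, again for null, heterozygous and wild-type kidneys. The heterozygous rise was lost without AAI replicate 4 for E2f8 (adjusted p = 0.0601) and without any of 3 arrays for Ccna2 (adjusted p up to 0.0573). Mcm4, of the replicative helicase, rose in Trp53(-/-) kidneys by 1.53 (adjusted p = 2.95e-05), beside 0.51 (adjusted p = 0.361) in heterozygous and 0.60 (adjusted p = 0.0924) in wild-type kidneys, and this difference between genotypes did not itself pass. Without wild-type AAI replicate 4 the wild-type value was 0.87 and passed (adjusted p = 0.00711). With the group means removed, Rrm1 correlated with Mki67 at r = 0.730, Tyms at r = 0.703 and Rrm2 at r = 0.539. For Rrm2b the r with Mki67 was 0.130, for Dut 0.025, for Dck -0.030 and for Tk1 -0.291.

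The mean log2 level over the 15 division markers ranged from 6.54 to 7.23 in Trp53(-/-) AAI and 5.48 to 5.75 in Trp53(-/-) water kidneys, from 5.73 to 6.24 in Trp53(+/-) AAI and 5.43 to 5.57 in Trp53(+/-) water kidneys, and from 5.60 to 6.45 in Trp53(+/+) AAI and 4.98 to 5.59 in Trp53(+/+) water kidneys. Their part in the Rrm1 and Rrm2 results was not tested.

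Markers of kidney cell types also moved with AAI. Beside the counts that follow, 15.5% of all clusters rose and 10.9% fell in null kidneys. The shares were 3.53% and 3.81% in heterozygous and 15.2% and 12.0% in wild-type kidneys. All 10 proximal tubule markers fell in Trp53(-/-) and Trp53(+/+) kidneys and 8 of 10 in Trp53(+/-) kidneys, their mean level lying at 7.69 to 8.20 in Trp53(-/-) AAI and 10.33 to 10.59 in Trp53(-/-) water kidneys, at 9.14 to 9.88 in Trp53(+/-) AAI and 10.40 to 10.58 in Trp53(+/-) water kidneys, and at 8.07 to 9.32 in Trp53(+/+) AAI and 10.60 to 10.92 in Trp53(+/+) water kidneys. Of 9 macrophage markers 8, 5 and 8 rose in Trp53(-/-), Trp53(+/-) and Trp53(+/+) kidneys, of 9 fibroblast markers 8, 5 and 8, and of 7 endothelial markers 6, 0 and 6. The macrophage mean was 6.85 to 7.63 in Trp53(-/-) AAI and 5.43 to 5.82 in Trp53(-/-) water kidneys, 5.93 to 7.07 and 5.54 to 5.79 in the AAI and water groups of heterozygous mice, and 6.69 to 7.38 and 4.82 to 5.33 in those of wild-type mice. The fibroblast mean was 7.96 to 8.38 in AAI and 6.37 to 6.46 in water kidneys of null mice, 6.72 to 7.64 and 6.49 to 6.86 in those of heterozygous mice, and 7.74 to 8.24 and 5.92 to 6.53 in those of wild-type mice. No T or NK cell marker of 8 passed in any genotype, the lowest adjusted p being 0.0578 for Cd3d in wild-type kidneys. Of 6 B cell markers Ebf1 rose in Trp53(-/-) and Trp53(+/+) kidneys and Blk fell in Trp53(+/+) kidneys. Of 6 neutrophil markers S100a8 and S100a9 rose and Mpo fell in Trp53(-/-) kidneys. Of 4 erythroid markers Alas2 fell in Trp53(+/+) kidneys. Of 5 podocyte markers 2, 0 and 5 rose in null, heterozygous and wild-type kidneys. Where these moved with the members, their part was not tested.

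The rest of nucleotide metabolism changed in both directions. Of 72 other genes in 5 lists 64 were measured, with 13 rises and 15 falls in null kidneys, 4 rises and 10 falls in heterozygous kidneys and 12 rises and 16 falls in wild-type kidneys. Over all clusters 15.5% rose and 10.9% fell in null, 3.53% and 3.81% in heterozygous and 15.2% and 12.0% in wild-type kidneys. The same shares stand beside the counts of the single lists below. At 2-fold or more, 2 rose and 5 fell in Trp53(-/-), 0 and 1 in Trp53(+/-) and 3 and 4 in Trp53(+/+) kidneys. Of all clusters 3.33% rose and 2.83% fell this far in Trp53(-/-), 0.700% and 0.790% in Trp53(+/-) and 3.37% and 2.67% in Trp53(+/+) kidneys. Their median change was 0.03, -0.01 and -0.11 in null, heterozygous and wild-type kidneys.

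Among 14 kinases and controls of the deoxynucleotide pool, 3 rose and 1 fell in Trp53(-/-), 1 and 0 in Trp53(+/-) and 3 and 1 in Trp53(+/+) kidneys. Dctd, the deoxycytidylate deaminase that feeds Tyms, rose by 0.52 (adjusted p = 0.0444) in Trp53(-/-) and 1.04 (adjusted p = 7.6e-05) in Trp53(+/+) kidneys and had 0.58 (adjusted p = 0.0641) in Trp53(+/-) kidneys. The Trp53(-/-) call was lost when any of 6 arrays was left out (0.33 to 0.62, adjusted p up to 0.198), and the Trp53(+/-) value passed without either of 2 (adjusted p down to 0.0324). Of 8 thymidylate and folate cycle genes, 2 rose and 3 fell in Trp53(-/-), 0 and 3 in Trp53(+/-) and 2 and 3 in Trp53(+/+) kidneys. Shmt2, the mitochondrial enzyme that supplies folate-bound one-carbon units from serine, fell by 1.46, 0.93 and 1.88 in Trp53(-/-), Trp53(+/-) and Trp53(+/+) kidneys. Mthfd2, the next mitochondrial enzyme, rose by 1.37 in Trp53(-/-) kidneys (adjusted p = 0.000146), with 0.25 and 0.22 in Trp53(+/-) and Trp53(+/+) kidneys. Without water replicate 1 the Trp53(+/+) value was 0.63 and passed (adjusted p = 0.00692). The 2 enzymes thus differed in direction in Trp53(-/-) kidneys.

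Of 5 de novo pyrimidine genes 2 rose and 0 fell in Trp53(-/-), 0 and 0 in Trp53(+/-) and 1 and 1 in Trp53(+/+) kidneys. Cad, of the first steps of the pathway, rose by 0.59 (adjusted p = 0.00136) in Trp53(-/-) kidneys. Its mean log2 signal was 4.32, and it was among the dim clusters that the alternative filter removed. Ctps, a CTP synthase, rose by 0.76 (adjusted p = 0.000513) in Trp53(-/-) and by 0.46 (adjusted p = 0.0342) in Trp53(+/+) kidneys, where the call was lost without any of 6 arrays (adjusted p up to 0.149). Umps, which makes uridylate, fell by 0.64 (adjusted p = 0.00012) in Trp53(+/+) kidneys. Of 11 de novo purine genes 0 rose in any genotype, and 1, 1 and 2 fell in Trp53(-/-), Trp53(+/-) and Trp53(+/+) kidneys.

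The largest falls were in salvage and breakdown, where 6 of 26 genes rose and 10 fell in Trp53(-/-), 3 and 6 in Trp53(+/-) and 6 and 9 in Trp53(+/+) kidneys. Upp2, a uridine phosphorylase, fell by 3.10, 1.60 and 2.59 in Trp53(-/-), Trp53(+/-) and Trp53(+/+) kidneys. Cda, cytidine deaminase, fell by 2.48 in null, 0.85 in heterozygous and 1.79 in wild-type kidneys. Upb1, of the last step of pyrimidine breakdown, fell by 2.02, 0.91 and 1.57 in null, heterozygous and wild-type kidneys, and Dpyd, of its first step, by 1.24, 0.73 and 0.86 in those kidneys. Ada, adenosine deaminase, rose by 0.95, 0.62 and 1.51 in null, heterozygous and wild-type kidneys. Its heterozygous rise (adjusted p = 0.0366) was lost when any of 6 arrays was left out (adjusted p up to 0.158). Nt5c3b, a nucleotidase, rose by 1.13 in null and 1.09 in wild-type kidneys and had 0.47 (adjusted p = 0.441) in heterozygous kidneys. The proximal tubule markers fell on the same arrays, and their part in these falls was not tested.

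**Figure D5:**
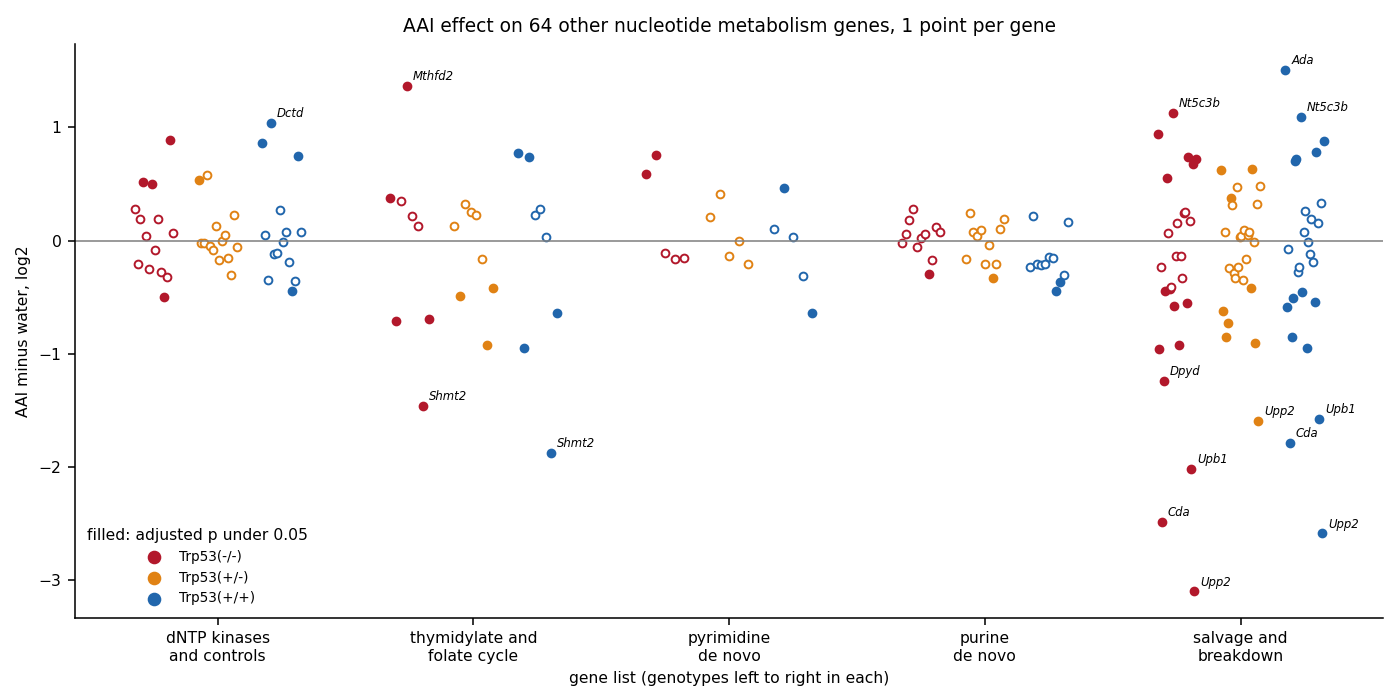
AAI minus water on the log2 scale (vertical axis) for 64 other nucleotide metabolism genes in 5 lists (horizontal axis), 1 point per gene in Trp53(-/-), Trp53(+/-) and Trp53(+/+) kidneys from left to right, filled where the adjusted p was under 0.05 and named where the change was also at least 2-fold. Salvage and breakdown holds the lowest points, down to -3.10 for Upp2 in Trp53(-/-) kidneys.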

How the data were processed

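The data are 30 Clariom S arrays, 1 per mouse kidney. The authors deposited 1 table of log2 signals, made with RMA (Robust Multi-array Average), for which the submitters' processing notes name the Transcriptome Analysis Console, with no version given in the sources used here. Background correction, normalization between arrays and summary over probes were thus done before deposit, and the values ran from 1.92 to 14.04. Of 22206 transcript clusters 19572 had 1 symbol through the platform table and 67 were left out because a brighter cluster shared their symbol, which left 22139. No filter on dim clusters was applied. With arrays the number of mice, 5 per group, limits the precision.

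Means of the 6 groups were fitted to all 30 arrays with limma 3.58.1 in R 4.3.3 (lmFit, contrasts.fit, eBayes), two-sided, with 24 residual degrees of freedom, and p-values were adjusted over all clusters. The procedure was tested on simulated data. The rule for named genes took the 7 members, up to 6 genes per list that changed 2-fold or differed between genotypes, and the closest genes to Rrm2 and Rrm2b. Genes named from cell type lists, the p53 targets that passed in no genotype and the de novo pyrimidine genes were chosen after their values were seen. Members and lists were chosen with earlier results of these data known. Replicate numbers did not pair the mice. Promoter sequences and chromosome positions are from RefSeq, GRCm38.p6. Alternatives left out single arrays or changed the arrays fitted, filter, normalization, prior, weights, block, batch term, threshold and test.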

Additional observations from a re-analysis of the deposited data

Results flagged for a closer look

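In 4 of 42 groups of 5 arrays over the 7 genes, 1 array lay far from the other 4 by Dixon's test at 95%, where chance flags about 1 in 20 groups. Rrm2b was 7.05 on Trp53(+/-) AAI replicate 5, and 6.56 to 6.66 on the other 4. Dut was 6.51 on Trp53(-/-) AAI replicate 4, beside 5.47 to 5.76, and 5.83 on Trp53(+/-) AAI replicate 3, beside 5.52 to 5.59. Tk1 was 7.47 on Trp53(+/+) water replicate 5, beside 7.16 to 7.24.

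Differences of the AAI effect between genotypes passed the test for 1 member and for several of the other named genes. Trp53(-/-) minus Trp53(+/-), it was 1.20 for Rrm1 (adjusted p = 0.0485), 1.62 for Mki67, 1.72 for E2f8, 1.50 for Cdk1 and 1.28 for Top2a (adjusted p from 0.00675 to 0.0303). The Mki67 difference was lost when any of 6 arrays was left out (adjusted p up to 0.0817), and that of Top2a with any of 8 (adjusted p up to 0.0764). In the same comparison it was -1.51 for Upp2 (adjusted p = 0.0222), -1.63 for Cda (adjusted p = 0.00112), -1.11 for Upb1 (adjusted p = 0.00919) and -1.59 for Eda2r (adjusted p = 0.00416). The Upp2 difference was lost without any of 5 arrays (adjusted p up to 0.0567). That of Rrm1 was lost without any of 19 (adjusted p up to 0.112) and under all 5 batch assignments (0.36 to 1.86). Trp53(-/-) minus Trp53(+/+), it was -2.37 for Eda2r (adjusted p = 8.78e-05) and -2.42 for Trp53inp1 (adjusted p = 0.00117). Trp53(+/-) minus Trp53(+/+), it was 0.95 for Shmt2 (adjusted p = 0.00861). All comparisons with Trp53(+/-) kidneys carry the batch difference between their AAI and water arrays, and its part was not tested beyond the batch term. For genes other than Rrm1 the batch-term values are not given here, so these differences cannot be read as genotype differences alone. Of all clusters 2.58% passed for Trp53(-/-) minus Trp53(+/-) and 1.84% for Trp53(+/-) minus Trp53(+/+). For Trp53(-/-) minus Trp53(+/+) 0.104% passed.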

How the results depend on the processing

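The 16 member changes that passed kept their direction in all 674 alternative fits and stayed past the threshold in 597. In many of these fits the direction could not change. Such fits altered only the threshold, filter or prior, or left out arrays outside the comparison, and kept the same estimate. Members passing numbered 5, 2 and 4 for AAI in Trp53(-/-), Trp53(+/-) and Trp53(+/+) kidneys. An adjusted p under 0.01 left 3, 1 and 2, a 2-fold minimum or the methods' test (unadjusted p, 2-fold) 2, 1 and 2, and the arrays compared alone 3 in Trp53(-/-) and 2 in Trp53(+/+) kidneys. As run here, the methods' test took the authors' cut-offs but left out their batch correction and their limit on the false discovery rate. With single arrays left out the counts were 4 to 6, 1 to 2 and 2 to 4. The batch term left a median of 0 (0 to 1) in Trp53(+/-) kidneys.

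For the Trp53(-/-) minus Trp53(+/-) effect, 1 became 0 with quantile normalization, median centring, a trended prior, an adjusted p under 0.01 or the batch term, 2 with array weights, and 0 to 2 without single arrays. Among AAI kidneys, Trp53(-/-) minus Trp53(+/+) gave 1 instead of 2 with an adjusted p under 0.01, 2-fold or the methods' test, 0 (0 to 1) with the batch term and 1 to 4 without single arrays. Trp53(-/-) minus Trp53(+/-) gave 1 at 2-fold or by the methods' test and 0 with the batch term. Among water kidneys, the counts against Trp53(+/+) were 0 to 1 without single arrays.

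Of the other nucleotide genes, 2-fold or the methods' test left 2 risen and 5 fallen in Trp53(-/-) (13 and 15 before), 0 and 1 in Trp53(+/-) (4 and 10) and 3 and 4 in Trp53(+/+) kidneys (12 and 16). In Trp53(+/-) kidneys an adjusted p under 0.01 left 1 risen, the batch term 0 risen and 0 fallen (up to 3 and 9), Trp53(+/+) water controls gave 16 risen, and single arrays 2 to 5 risen. The replicate block changed no call of a member (5, 2 and 4), and same-numbered arrays had a median correlation of -0.006 over 75 pairs. The cause of these shifts was not tested. No member changed sign where called, though many of the fits could not change a sign.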
